A study of Vitis vinifera with 27 samples.

Results

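The genes described here encode the enzymes that build, trim and break pectin in the wall of the grape berry, together with the proteins that inhibit some of them. They were chosen by name: a gene was taken when its first database description named a pectinesterase or pectin methylesterase, a polygalacturonase, a pectate lyase, a rhamnogalacturonan enzyme, a beta-galactosidase, a pectin acetylesterase or a galacturonosyltransferase. The rule used no measured value, though it was set with earlier results of these data known. It found 139 of the 27096 genes listed in at least 1 sample. They were 42 polygalacturonases, 41 pectin methylesterases, 19 galacturonosyltransferases, 16 beta-galactosidases, 14 pectate lyases, 4 pectinesterase inhibitors, 2 rhamnogalacturonate lyases and 1 polygalacturonase inhibitor. No gene was described as a pectin acetylesterase, and the polygalacturonases include proteins named as non-catalytic subunits.

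RNA was sequenced from berries of 3 Muscat table grape cultivars of Vitis vinifera, each at 3 stages of the Eichhorn-Lorenz scale, with 3 samples in each of the 9 groups. Zaomeiguixiang has purple-red skin and a strong Muscat flavour, Italia is a mid-late cultivar with a moderate Muscat flavour, and Xiangfei has green to golden skin and a strong Muscat flavour. The 3 stages follow ripening, with EL35 at the start of veraison (the turn from hard green to soft, coloured fruit), EL36 at its end while sugar is still building up, and EL38 at picking. The untreated vines stood in 1 vineyard under a plastic cover and were sampled in a single season, and each sample pooled berries drawn at random. The labels do not tie a sample to a vine, so the p-values below measure the spread between these pooled samples, and a cultivar difference is a difference between these plantings.

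Pectin is the galacturonic acid-rich polymer that fills the primary wall and glues neighbouring cells together. Galacturonosyltransferases in the Golgi lengthen its backbone, which is secreted in a methylated form. In the wall, pectin methylesterases strip the methyl groups, and polygalacturonases and pectate lyases then cut the exposed backbone, the first by hydrolysis and the second by elimination. Beta-galactosidases remove galactose from the side chains, and rhamnogalacturonate lyases cut the branched backbone that carries them. The loosening of this network is a known part of fruit softening, which in grape begins at veraison.

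Each sample held between 16908559 and 27186952 expected counts (the estimated number of reads from each gene, summed over genes), with a median of 23335793. Replicates of a group correlated with r between 0.848 and 0.937 across genes. Levels are given as FPKM, which scales the reads to gene length and library size and so can be compared between genes. The anthocyanin glucosyltransferase UFGT, which marks coloured skin, stood at 21.77 to 308.11 FPKM in Zaomeiguixiang samples, 0 to 0.28 in Italia and 0 to 0.78 in Xiangfei. Of the 27 libraries, 3 stood apart by transcripts of seed storage proteins and oleosins: the summed FPKM of 14 such genes was 48109.98 in Italia EL35 replicate 3, 16369.47 in Zaomeiguixiang EL35 replicate 3 and 1811.17 in Xiangfei EL38 replicate 3, against 112.89 to 429.59 in the other 24 libraries. Of 28 genes chosen by names such as ripening-related, thaumatin-like or class IV chitinase, 17 to 23 were listed in each library, with a summed FPKM of 10173.05 to 47338.79. They were chosen by name only, so not all need mark ripening berries. The 2 lowest sums were those of Italia EL35 replicate 3 (10173.05) and Zaomeiguixiang EL35 replicate 3 (10471.41), both seed-rich. The third seed-rich library, Xiangfei EL38 replicate 3, was not low, at 35789.79. Results found to rest on the seed-rich libraries are given with and without them, except for the counts made without a model.

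Pectin genes were a small but changing part of the transcriptome. They took 1.00 ± 0.098% of the counts at EL35 in Zaomeiguixiang, 0.348 ± 0.0225% at EL36 and 0.355 ± 0.0453% at EL38 (mean ± SD, n = 3 each). The share in Italia was 0.736 ± 0.294%, 0.286 ± 0.0758% and 0.350 ± 0.0541% at the same stages, and in Xiangfei it was 1.03 ± 0.201%, 0.350 ± 0.0192% and 0.443 ± 0.043%. All EL38 samples lay below all EL35 samples in Zaomeiguixiang and in Xiangfei. In Italia the groups met at one sample, the seed-rich EL35 replicate 3 at 0.403%, and the EL35 mean without it was 0.903%. In bulk RNA, fewer cells of a type and less RNA per cell cannot be told apart.

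**Figure D1:**
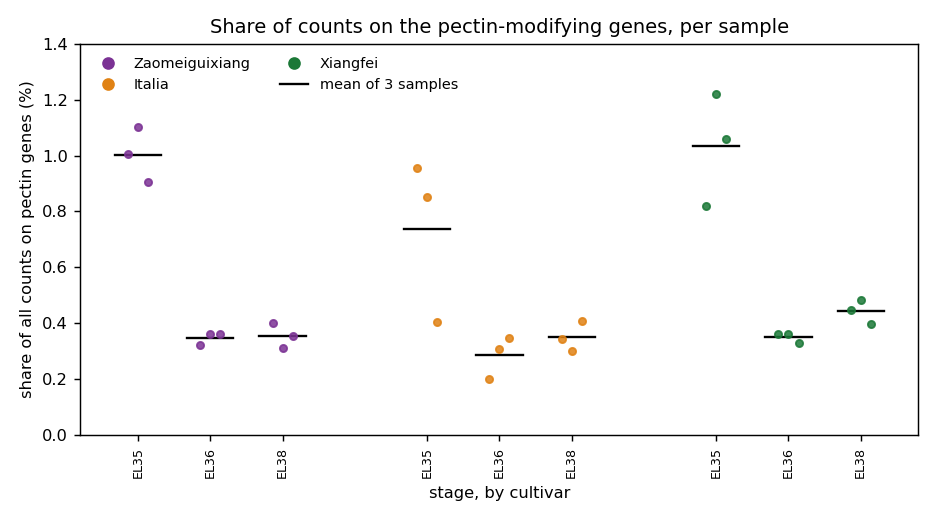
Share of all expected counts (%, vertical axis) that fell on the 139 pectin genes in each of the 27 samples, by stage within each cultivar; points are samples and bars are means of 3. The EL35 samples reach 1.22%, and only the seed-rich Italia EL35 sample, at 0.403%, falls among the later samples.

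A few genes carried most of this signal. The 10 most abundant members held 72.7% of the members' summed mean FPKM, led by PL1, described as probable pectate lyase 8, with a mean of 871 FPKM over the 27 samples. Next came the pectin methylesterase PME1 (LOC100233113) at 329 FPKM, the polygalacturonase inhibitor LOC100232865 at 204 FPKM and pectinesterase 3 (LOC100232847) at 158 FPKM. A mean of at least 1 FPKM was reached by 67 members (48.2%), against 15389 of all genes (56.79%). The roles differed in this respect: 16 of 19 galacturonosyltransferases, 11 of 16 beta-galactosidases and 8 of 14 pectate lyases reached it, against 18 of 41 pectin methylesterases, 13 of 42 polygalacturonases and neither rhamnogalacturonate lyase.

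Summed over each role, the pectate lyases were the most abundant class at EL35 in every cultivar. Their summed FPKM was 2533 ± 777 at EL35, 406 ± 55.1 at EL36 and 363 ± 71.1 at EL38 in Zaomeiguixiang (mean ± SD, n = 3 each), and 2171 ± 1284, 386 ± 128 and 206 ± 115 in Italia. In Xiangfei it was 2083 ± 571, 680 ± 273 and 1213 ± 195, so that its harvest samples lay above those of both other cultivars. The pectin methylesterases summed to 732 ± 274 at EL38 against 1194 ± 182 at EL35 in Zaomeiguixiang and to 588 ± 111 against 1558 ± 338 in Xiangfei. In Italia their sum was 1117 ± 35.1 at EL38, within the range of 948 ± 249 at EL35. The beta-galactosidases summed to 210 ± 25.2 FPKM at EL38 against 561 ± 129 at EL35 in Zaomeiguixiang, 143 ± 61.3 against 213 ± 36.6 in Italia and 124 ± 60.3 against 507 ± 98.1 in Xiangfei. The galacturonosyltransferases summed to 325 ± 36.9 FPKM at EL38 against 341 ± 42.0 at EL35 in Zaomeiguixiang, 287 ± 63.5 against 208 ± 11.5 in Italia and 258 ± 22.9 against 461 ± 28.4 in Xiangfei.

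Stage was compared first, averaging the change over the 3 cultivars. Counts were tested gene by gene in 1 model of all samples with edgeR's quasi-likelihood test, and a gene is called when its p, adjusted by the Benjamini-Hochberg method over the 21152 genes tested, is at most 0.05. Of the 139 pectin genes, 91 had enough counts to be tested. At EL38 against EL35, 24 were called lower and 4 higher, beside 10.1% of all genes called in either direction (6.28% lower and 3.77% higher). By role, the lower ones were 7 of 25 pectin methylesterases, 6 of 12 beta-galactosidases, 5 of 11 pectate lyases, 5 of 22 polygalacturonases and the polygalacturonase inhibitor. None of the 17 galacturonosyltransferases tested was called. The median log2 fold change of the tested members was -0.49, also with genes at 0 in a group set to 3 counts per library, against 0.00 for all genes. Without the 3 seed-rich libraries 26 members were called, 23 of them lower. Except where stated, the shares of all genes called here and below come from the edgeR fit of all samples. They cannot be set beside counts from fits without the seed-rich libraries or from other methods.

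**Figure D2:**
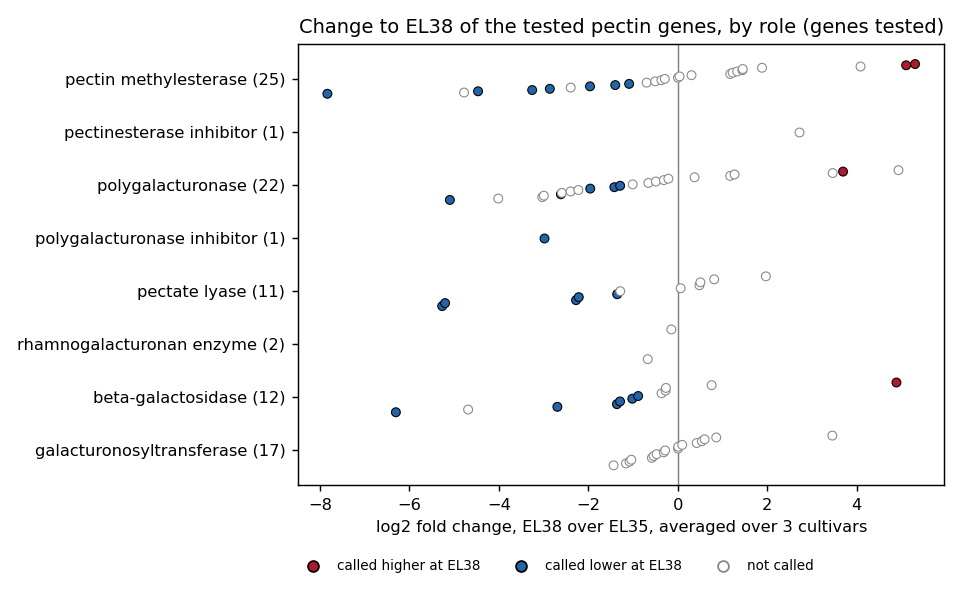
Log2 fold change, EL38 over EL35 averaged over the 3 cultivars (horizontal axis), of the 91 tested pectin genes in rows by role, with the number tested in brackets; blue points were called lower, red points higher and open points not called. The blue points (24) lie in 5 of the roles, and none of the 17 galacturonosyltransferases is filled; fitted values of genes at 0 in a group depend on the prior count.

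At EL36 against EL35, 24 members were called lower and 6 higher, beside 10.8% of all genes (6.24% lower and 4.57% higher), with a median log2 fold change of -0.64 (-0.58 with genes at 0 set to 3 counts per library) against -0.02 for all genes. At EL38 against EL36 no member was called by edgeR, beside 0.00473% of all genes. An unadjusted p under 0.05 was found for 12 of the 91, and DESeq2 called 3. No share of all genes is given for these last 2 counts, so nothing is drawn from them. The 28 members called at EL38 and the 30 called at EL36 are measured against the same EL35 samples, so the 2 counts are not independent.

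Among the pectate lyases, LOC100242302 (probable pectate lyase 5) had the clearest stage pattern. Its FPKM in Zaomeiguixiang was 563.75, 600.43 and 306.52 at EL35, 4.03, 27.41 and 16.4 at EL36 and 11.04, 5.89 and 10.21 at EL38. In Italia it was 155.96, 160.13 and 59.67, then 0.89, 3.58 and 4.63, then 2.65, 1.18 and 7.07, and in Xiangfei 232.83, 385.97 and 333.25, then 14.19, 18.04 and 2.65, then 6.68, 8.46 and 29.68. Every EL36 and EL38 sample lay below every EL35 sample. The log2 fold change was -5.27 (SE 0.50, adjusted p = 1.509e-06) at EL38 against EL35 and -5.05 (adjusted p = 2.065e-06) at EL36 against EL35. Each cultivar was also called alone at EL38 against EL35, with log2 fold changes of -6.00 in Zaomeiguixiang, -5.28 in Italia and -4.52 in Xiangfei.

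PL1, the most abundant pectin gene of these berries, fell in a less uniform way. It had 237.35, 283.1 and 378.23 FPKM at EL38 against 1428.42, 2230.81 and 1259.9 at EL35 in Zaomeiguixiang. In Italia it had 225.4, 43.06 and 214.32 at EL38 against 2591.47, 2561.09 and 576.03 at EL35, the last being the seed-rich library. In Xiangfei the EL38 samples, at 1080.8, 1256.7 and 846.06, overlapped the EL35 samples, at 1102.77, 1887.23 and 1779.78, after lower values of 278.43, 675.47 and 736.29 at EL36. Averaged over cultivars, PL1 was lower at EL38, with a log2 fold change of -2.28 (SE 0.42, adjusted p = 0.000971). Alone, the change was called in Italia (-3.73, SE 0.77, adjusted p = 0.008996), not in Zaomeiguixiang (-2.69, adjusted p = 0.06495) or in Xiangfei (-0.40, adjusted p = 0.8207). The test that the stage changes differ between the cultivars was not passed (adjusted p = 0.3311).

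The other called pectate lyases were LOC100243265, a second gene described as pectate lyase 5, the pectate lyase 12-like LOC100246124 and the weakly expressed LOC100267540. LOC100243265 had 13.41, 15.02 and 16.05 FPKM at EL38 against 381.43, 430.97 and 149.62 at EL35 in Zaomeiguixiang. That is a log2 fold change of -4.69 (adjusted p = 0.006772) in a cultivar whose groups stand far apart. In Xiangfei the same gene had 39.53, 70.97 and 67.19 FPKM at EL38 against 18.8, 112.91 and 85.95 at EL35, which overlap (log2 fold change -0.28, adjusted p = 0.89). In Italia its change was not called either (-1.68, adjusted p = 0.2329). Its stage changes were not called different between the cultivars (adjusted p = 0.05233). LOC100246124 was lower at EL38 in all 3 cultivars without overlap, with a mean log2 fold change of -1.36 (adjusted p = 0.01135), with the only cultivar called alone being Italia (-2.46, adjusted p = 0.02882). LOC100267540 stayed at or below 2.08 FPKM in every sample (adjusted p = 0.00621), and in Italia, with all 3 EL38 samples at 0, EL38 was at least 15.63-fold lower than EL35 (20.67-fold without the seed-rich EL35 library).

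**Figure D3:**
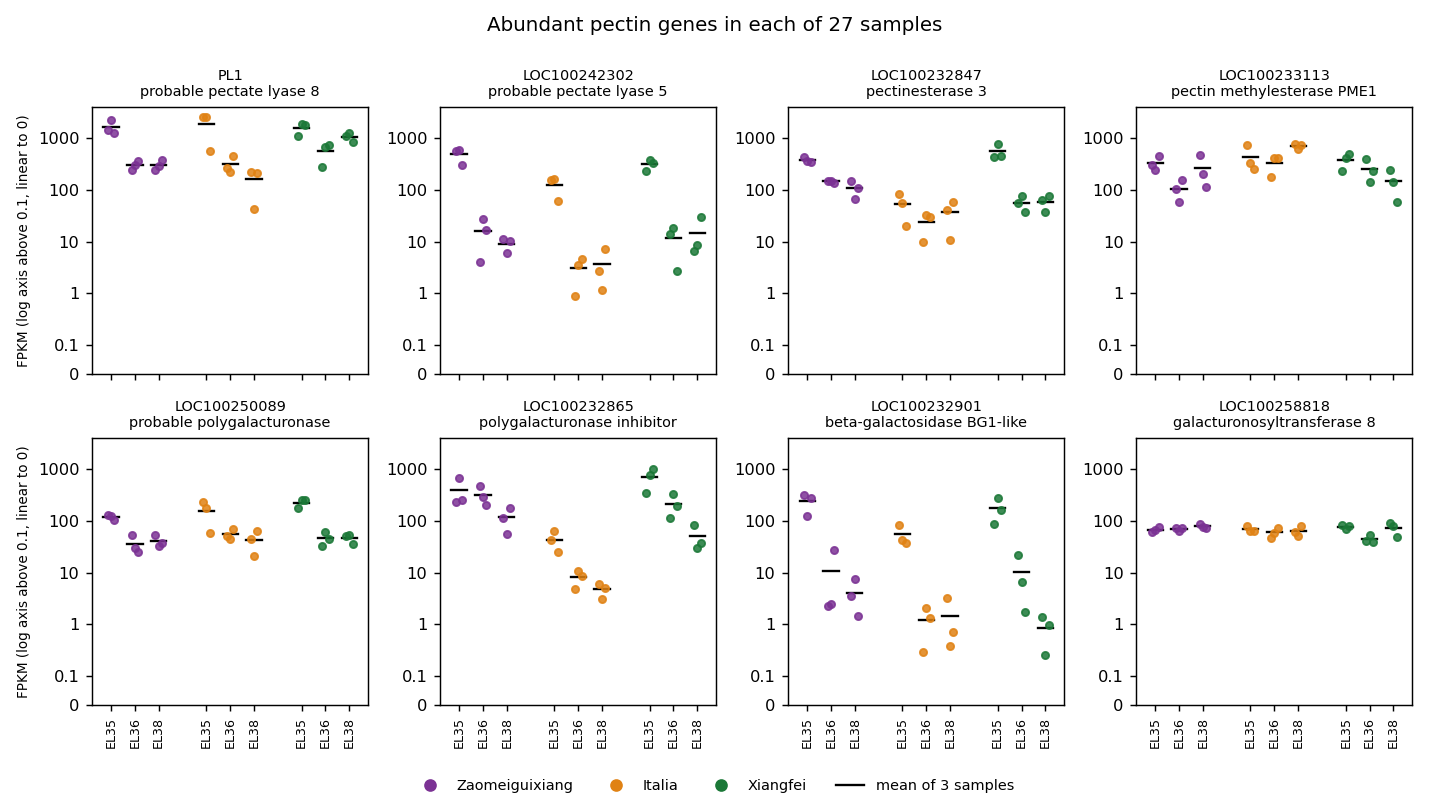
FPKM (vertical axis, logarithmic above 0.1 and linear to 0) of 8 abundant pectin genes in each sample, by stage within each cultivar; points are samples and bars are means of 3. LOC100242302 and LOC100232901 drop after EL35 in all 3 cultivars, PL1 stays high at EL38 in Xiangfei at 846.06 to 1256.7 FPKM, and LOC100258818 stays between 38.72 and 89.06 FPKM throughout.

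Among the pectin methylesterases, pectinesterase 3 (LOC100232847) was lower after EL35. It had 146.4, 65.98 and 107.08 FPKM at EL38 against 429.89, 363.3 and 351.39 at EL35 in Zaomeiguixiang, and 62.28, 37.91 and 77.28 against 437, 783.02 and 442.98 in Xiangfei. Those groups did not overlap, but in Italia 41.49, 10.77 and 57.66 FPKM at EL38 lay among 83.83, 56.12 and 20.04 at EL35. The mean log2 fold change was -1.96 (SE 0.35, adjusted p = 0.000768). The gene next to it in the reference order, the pectinesterase LOC100251413, also fell, by 3.26 on the log2 scale (adjusted p = 0.000369). In Xiangfei it had 0.67, 0.02 and 0.53 FPKM at EL38 against 43.45, 56.92 and 43.95 at EL35 (-6.75, adjusted p = 0.00735), while in Italia it had 8.08, 0.99 and 3.6 against 4.91, 3.33 and 2.04 (0.20, adjusted p = 0.9593). In Zaomeiguixiang its change was not called (-3.21, adjusted p = 0.08101), and its highest value, 83.68 FPKM, came from the seed-rich Zaomeiguixiang EL35 replicate 3. The changes of LOC100251413 were not called different between the cultivars (adjusted p = 0.05442).

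PME1 (LOC100233113), the most abundant methylesterase, had no called stage change (log2 fold change -0.37, adjusted p = 0.6198). At EL38 it stood at 467.32, 198.58 and 114.19 FPKM in Zaomeiguixiang, 774.11, 614.32 and 729.14 in Italia and 245.31, 143.11 and 58.49 in Xiangfei. The Italia berries were thus highest at harvest. At EL38 alone these differences were not called (Italia over Xiangfei 1.72, adjusted p = 0.1073, and Zaomeiguixiang over Italia -1.69, adjusted p = 0.241). Averaged over stages, Italia was higher than Zaomeiguixiang (log2 fold change of Zaomeiguixiang over Italia -1.37, adjusted p = 0.01293). Many methylesterases are made with an inhibitor-like domain, as the names of the next genes say. LOC100257530 (pectinesterase/inhibitor 51) fell by 1.09 on the log2 scale (adjusted p = 0.01598), whereas LOC100265519, a pectinesterase/inhibitor 26, was at 0.04 (adjusted p = 1.0). Its neighbour LOC100260300 has the same description and ranged from 26.47 to 153.92 FPKM, the highest value coming from the seed-rich Italia EL35 library.

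The weakly expressed methylesterase LOC104880620 (pectinesterase/inhibitor 12) was not detected in the harvest berries of both Zaomeiguixiang and Italia. It had 0 FPKM in all 3 EL38 samples of Zaomeiguixiang, against 7.19, 2.61 and 13.79 at EL35. It had 0 in all 3 EL38 samples of Italia too, against 4.22, 4.1 and 1.47 at EL35. Set against a limit of 3 counts per library, EL38 was at least 106.3-fold lower than EL35 in Zaomeiguixiang and at least 51.98-fold lower in Italia. Without the seed-rich EL35 libraries the bounds were 71.5-fold and 69.78-fold. Xiangfei still had 1.68, 0.34 and 1.93 FPKM at EL38, against 2.83, 3.3 and 8.5 at EL35. The highest sample of this gene was the seed-rich Zaomeiguixiang EL35 replicate 3, and the average change over cultivars was called (adjusted p = 6.736e-05).

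Of the 4 members called higher at EL38 in the fit of all samples none was abundant. Without the 3 seed-rich libraries the methylesterase LOC100252362, with a mean of 42.4 FPKM over the 27 samples, was called higher too (4.81, adjusted p = 3.1e-05), as described below. Pectinesterase 2 (LOC100255703) was at or below 0.4 FPKM in the EL35 samples and reached 5.65 FPKM at EL38, with its highest values, 41.95 and 18.85, in 2 of the 3 Xiangfei samples at EL36 (log2 fold change 5.30, SE 1.24, adjusted p = 0.00697). The pectinesterase-like LOC100245002 was at 0 in all EL35 samples and at most 1.01 FPKM (adjusted p = 0.03559, which rose above 0.05 in 13 of the 27 fits that left out 1 library). Its call was also lost without the 3 seed-rich libraries (adjusted p = 0.06557). Beta-galactosidase 13 (LOC100258852) reached 1.45 FPKM at most (adjusted p = 0.005192). The fourth was the polygalacturonase QRT3 (LOC100256410), described below. The single pectinesterase inhibitor tested, LOC104879796, stayed at or below 1.9 FPKM and was called higher at EL36 against EL35 (log2 fold change 3.01, adjusted p = 0.04781) but not at EL38, a call that appeared without Xiangfei EL38 replicate 3 (2.91, adjusted p = 0.04005).

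Among the polygalacturonases, LOC100250089 was the most abundant. It had 52.88, 32.16 and 36.48 FPKM at EL38 against 129.44, 125.59 and 102.37 at EL35 in Zaomeiguixiang, 44.98, 20.4 and 62.11 against 231.52, 176.24 and 57.7 in Italia, and 51.93, 53.58 and 35.24 against 175.73, 249.6 and 248.86 in Xiangfei. Only the seed-rich Italia EL35 sample, at 57.7, lay within the range of the harvest samples. The log2 fold change was -1.96 (SE 0.34, adjusted p = 0.0005062). The exopolygalacturonase LOC100257213, of the type that removes residues from the end of the chain, fell by 1.29 on the log2 scale (SE 0.22, adjusted p = 0.0005421). It was called alone in Zaomeiguixiang (-2.13, adjusted p = 0.009648) and Italia (-1.41, adjusted p = 0.04867), and not in Xiangfei (-0.33, adjusted p = 0.7098). A further gene described as a QRT3 isoform, LOC100242282, fell by 1.42 on the log2 scale (adjusted p = 0.002944). The polygalacturonase LOC100852885, at or below 1.45 FPKM, was called lower as well (adjusted p = 0.01687, and 0.05936 without the 3 seed-rich libraries).

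The polygalacturonase inhibitor LOC100232865 belongs to a family of wall proteins that bind fungal polygalacturonases. It had 114.82, 54.54 and 180.21 FPKM at EL38 against 233.88, 671.81 and 252.77 at EL35 in Zaomeiguixiang, 5.89, 3.11 and 5.1 against 41.78, 63.8 and 24.46 in Italia, and 84.78, 30.39 and 36.57 against 351.29, 756.77 and 985.18 in Xiangfei. No EL38 sample reached the EL35 samples of its own cultivar. The log2 fold change was -2.995 (SE 0.43, adjusted p = 9.284e-05). At EL36 the Zaomeiguixiang samples, at 480.35, 285.03 and 201.62 FPKM, still overlapped their EL35 samples.

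Among the beta-galactosidases, the BG1-like LOC100232901 had one of the largest changes of all the tested members. Its FPKM in Zaomeiguixiang was 315.3, 123.27 and 273.44 at EL35, 2.29, 2.42 and 26.86 at EL36 and 3.49, 7.4 and 1.42 at EL38. In Italia it was 84.63, 42.66 and 36.61, then 0.29, 2.02 and 1.34, then 3.26, 0.38 and 0.71, and in Xiangfei 87.45, 278.84 and 164.95, then 22.06, 6.5 and 1.76, then 1.37, 0.25 and 0.95. All later samples were below all EL35 samples. The log2 fold change was -6.30 (SE 0.68, adjusted p = 4.956e-06) at EL38 against EL35 and -4.75 (adjusted p = 5.166e-05) at EL36 against EL35.

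A second beta-galactosidase was called in each cultivar alone. LOC100254367, whose best description is beta-galactosidase 3 of tea, had 6.43, 5.93 and 6.7 FPKM at EL38 against 41.85, 16.52 and 36.46 at EL35 in Zaomeiguixiang, 1.4, 1.92 and 3.3 against 18.33, 13.69 and 17.16 in Italia, and 1.15, 2.28 and 5.7 against 36.95, 10.21 and 13.23 in Xiangfei. The groups were apart in every cultivar (log2 fold change -2.69, SE 0.36, adjusted p = 4.384e-05). Beta-galactosidase 17 (LOC100251499) fell by 1.36 on the log2 scale (adjusted p = 0.000114), and the beta-galactosidase LOC100259328 fell by 1.29 (adjusted p = 0.006883). The most abundant of the class, beta-galactosidase 1 (LOC100265181), had no called change (-0.37, adjusted p = 0.5542).

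The galacturonosyltransferases, which make pectin rather than break it, had no called change at EL38 against EL35 when averaged over the cultivars. In Xiangfei alone 1 was called lower: the galacturonosyltransferase-like 9 gene LOC100241606 had 3.67, 7.9 and 6.83 FPKM at EL38 against 54.01, 55.31 and 107.03 at EL35 (log2 fold change -3.44, SE 0.84, adjusted p = 0.04325). Its EL38 and EL35 samples overlapped in the other cultivars, where the log2 fold change was 0.10 in both. Galacturonosyltransferase 8 (LOC100258818) ranged only from 38.72 to 89.06 FPKM over the 27 samples, with a log2 fold change of 0.00 (SE 0.21) at EL38 against EL35. At EL36 against EL35, 4 of 17 were called lower: LOC100241606 (-1.79, adjusted p = 0.01311), galacturonosyltransferase 15 LOC100259182 (adjusted p = 0.02428), galacturonosyltransferase 9 LOC100253237 (-0.97, adjusted p = 0.009372) and galacturonosyltransferase 11 LOC100262181 (-0.83, adjusted p = 0.03928). For LOC100241606 the EL36 change was -3.04 in Zaomeiguixiang and -2.71 in Xiangfei but 0.38 in Italia, and no cultivar was called alone. Leaving out 1 library at a time, LOC100262181 was not called in 13 of 27 fits (adjusted p up to 0.08605) and LOC100259182 in 5 (up to 0.05501). Galacturonosyltransferase 14 (LOC100242366) had higher values at EL38 in Italia, at 33.88, 55.58 and 83.99 FPKM against 16.85, 17.55 and 13.05 at EL35. Those groups did not overlap, but the change was not called (1.70, adjusted p = 0.06062). The 2 rhamnogalacturonate lyases, LOC100247189 and LOC100260538, stayed at or below 2.54 and 0.72 FPKM and were not called at any stage.

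Within single cultivars fewer genes passed. At EL38 against EL35, 7 members were called in Zaomeiguixiang (all lower), 10 in Italia (8 lower and 2 higher) and 10 in Xiangfei (all lower). Of all genes, 1.53% were called in Zaomeiguixiang (0.931% lower and 0.596% higher), 2.95% in Italia (1.91% lower and 1.04% higher) and 1.17% in Xiangfei (0.742% lower and 0.43% higher). Without the 3 seed-rich libraries the counts were 8 in Zaomeiguixiang, 14 in Italia and 8 in Xiangfei. These counts depended on the method and on single libraries. DESeq2 called 17 in Zaomeiguixiang, 18 in Italia and 22 in Xiangfei, and edgeR fitted to only the groups compared called 19, 1 and 4. The shares of all genes above are those of the edgeR fit of all samples, and the counts of other fits cannot be set beside them. Leaving out 1 library at a time gave 3 to 11 in Zaomeiguixiang, with the fewest without EL38 replicate 2, 2 to 14 in Italia, with the fewest without EL38 replicate 2, and 3 to 12 in Xiangfei, with the fewest without EL35 replicate 2 or EL38 replicate 2. The 18 members called in at least 1 cultivar included the pectate lyase LOC100242302 and the beta-galactosidases LOC100232901 and LOC100254367 in all 3.

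**Figure D4:**
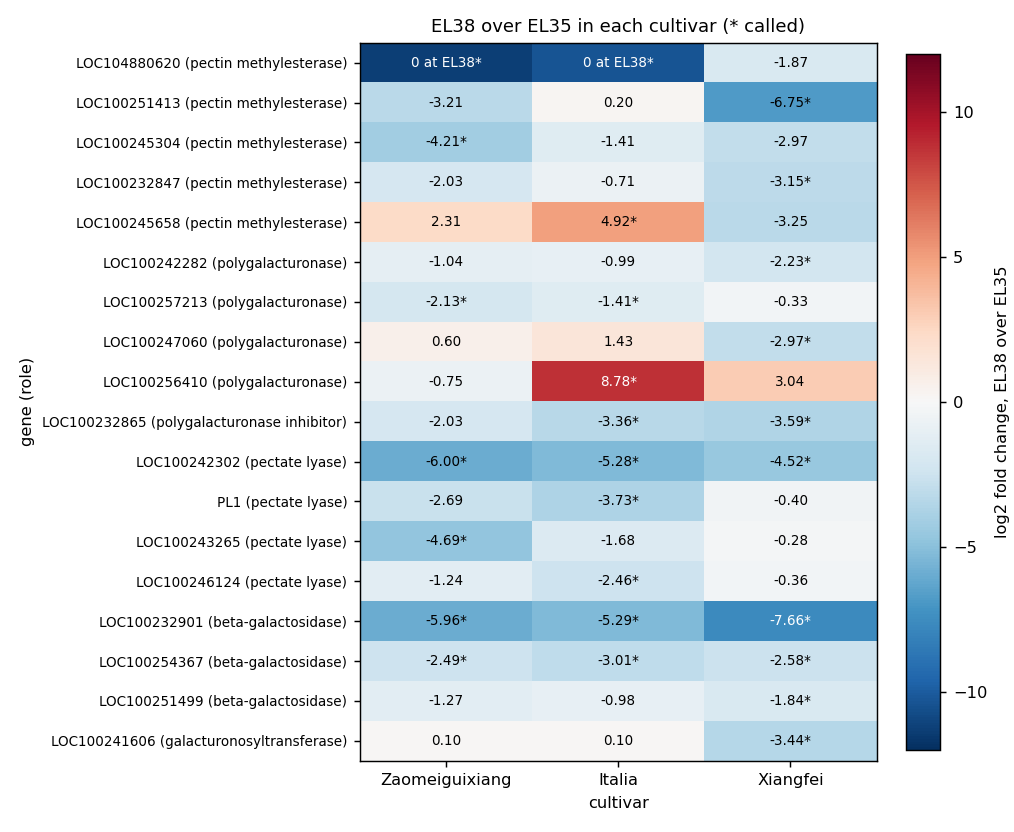
Log2 fold change, EL38 over EL35 (colour and number), in each cultivar (columns) for the 18 pectin genes called in at least 1 cultivar (rows, with role); an asterisk marks a called change, and "0 at EL38" marks cells where all EL38 samples were at 0 and the colour depends on the prior count. LOC100245658 is red in Italia at 4.92 and blue in Xiangfei at -3.25, and PL1 is near white in Xiangfei at -0.40.

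The samples were also compared without a model. In Zaomeiguixiang the FPKM of all 3 EL38 samples lay below that of all 3 EL35 samples for 26 members and above it for 13, beside 7.35% and 10.7% of all genes. In Italia it lay below for 14 and above for 17, beside 7.86% and 8.64%, and in Xiangfei below for 32 and above for 1, beside 6.79% and 4.43%. In Italia, more members thus lay above than below, which is also the order of all genes there. Each cultivar had 1 seed-rich library in these groups, and these counts are given with them only. The FPKM of all 3 EL38 samples lay below that of all 3 EL35 samples in each of the cultivars for 6 members (4.32%), against 269 of all genes (0.993%). The 6 were the pectate lyases LOC100242302 and LOC100246124, the beta-galactosidases LOC100232901 and LOC100254367, the polygalacturonase inhibitor LOC100232865 and the methylesterase LOC104880620. No member lay above in all 3 cultivars, as 112 of all genes did (0.413%).

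Cultivars were then compared, averaging over stages. The stages were not equal in ripeness, as in the study's measurements Italia had the lowest total soluble solids at each of them. The Italia berries at EL36 had less than the EL35 berries of both other cultivars. A cultivar difference is thus also one between berries of unlike soluble solids, and its cause was not tested. Italia against Xiangfei had 21 members called lower and 3 higher, beside 16.1% of all genes in either direction (10.0% lower and 6.15% higher), with a median log2 fold change of -0.56 (-0.51 with genes at 0 set to 3 counts per library) against -0.01 for all genes. Without the 3 seed-rich libraries 22 were called. The polygalacturonase inhibitor LOC100232865 was lower in Italia, and at each stage no Italia sample reached the Xiangfei samples (log2 fold change -4.34, SE 0.46, adjusted p = 5.725e-07). Pectinesterase 3 (LOC100232847) had a log2 fold change of -1.96 (adjusted p = 0.0004423), the pectate lyase LOC100242302 one of -1.90 (adjusted p = 0.003894) and LOC100265519, pectinesterase/inhibitor 26, one of -2.16 (adjusted p = 3.298e-05). The last had 15.24 to 26.97 FPKM at EL35 in Italia and 54.92 to 94.01 in Xiangfei, with no overlap at any stage. Of the galacturonosyltransferases, LOC100253237 had a log2 fold change of -1.37 (adjusted p = 0.0002907) and the galacturonosyltransferase-like 1 LOC100852929 one of -3.18 (adjusted p = 0.0009857).

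The non-catalytic polygalacturonase subunit JP630 (LOC100258559), described as part of a polygalacturonase complex, was one of the 3 members higher in Italia. It had 12.41, 7.58 and 8.14 FPKM at EL35, 2.2, 4.84 and 12.43 at EL36 and 2.09, 1.47 and 3.82 at EL38 in Italia, against 10.07, 0 and 1.17, then 0.21, 0.04 and 0, then 0.32, 0 and 0 in Xiangfei. Apart from 1 Xiangfei sample at EL35, every Italia sample lay above every Xiangfei sample (log2 fold change 3.95, SE 0.77, adjusted p = 0.001028). It was also lower at EL38 than at EL35 on average (-2.61, adjusted p = 0.02072), a call lost without that Xiangfei EL35 replicate 1 (-1.91, adjusted p = 0.08552). The pectinesterase/inhibitor 36 gene LOC100252362 was called higher in Italia as well (3.35, adjusted p = 0.0123), but this rested on a seed-rich library. It had 338.01 FPKM in Italia EL35 replicate 3 and 0.17 and 0.14 in the other Italia samples of that stage, and without the 3 seed-rich libraries the log2 fold change was 0.20 (adjusted p = 0.926). Without them the gene was instead called higher at EL38 than at EL35, by 4.81 (adjusted p = 3.1e-05), against 1.45 (adjusted p = 0.3202) in all samples. Its Italia EL38 samples had 128.52, 257 and 74.23 FPKM.

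Zaomeiguixiang against Italia ran the other way, with 22 members called higher and 4 lower, beside 15.5% of all genes (8.56% higher and 6.97% lower), and 23 called without the 3 seed-rich libraries. Both this comparison and Italia against Xiangfei use the Italia samples. Pectinesterase 2 (LOC100259777) had the largest difference, with 2.38, 2.62 and 2.38 FPKM at EL35, 44.22, 14.17 and 10.09 at EL36 and 41.13, 11.14 and 34.02 at EL38 in Zaomeiguixiang, against at most 1.29 FPKM in any Italia sample. No samples overlapped at any stage (log2 fold change 6.66, SE 0.95, adjusted p = 4.191e-05). The polygalacturonase inhibitor LOC100232865 was higher by 4.24 (SE 0.46, adjusted p = 8.701e-07), the beta-galactosidase LOC100259328 by 2.32 (adjusted p = 1.763e-05) and pectinesterase 3 (LOC100232847) by 2.12 (adjusted p = 0.0002601). Against these, the polygalacturonases LOC100250814 and LOC100255362 were called lower in Zaomeiguixiang. LOC100250814 was at 0 in all EL36 and EL38 samples of Zaomeiguixiang and at 2.24, 6.72 and 1.75 FPKM at EL38 in Italia, where Zaomeiguixiang was thus at least 24.84-fold lower. LOC100255362 had 13.24, 19.15 and 3.43 FPKM at EL38 in Italia, and its difference of -3.70 (adjusted p = 0.01937) was not called without the 3 seed-rich libraries (-2.23, adjusted p = 0.1577), with 8.42 FPKM in the seed-rich Italia EL35 sample and 0.12 and 0 in the others of that group.

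Zaomeiguixiang against Xiangfei had 8 members called higher and 11 lower, beside 16.0% of all genes (5.93% higher and 10.1% lower). This count ranged from 10 without Xiangfei EL38 replicate 2 to 30 without Xiangfei EL36 replicate 1, and was 27 without the 3 seed-rich libraries, when 24.1% of all genes were called. PL1 was lower on average in Zaomeiguixiang (-1.36, adjusted p = 0.02534) and in Italia (-1.36, adjusted p = 0.02391) than in Xiangfei. Leaving out 1 library, the first of these calls was lost in 7 of 27 fits (adjusted p up to 0.05835) and the second in 2 (up to 0.05354). At EL38 alone the difference from Xiangfei was -2.43 (adjusted p = 0.04789) in Zaomeiguixiang and -3.08 (adjusted p = 0.01574) in Italia, with no sample overlapping. At that stage 9 members were called between Zaomeiguixiang and Xiangfei, beside 6.11% of all genes, and 10 between Italia and Xiangfei, beside 6.07%. Galacturonosyltransferase-like 1 (LOC100852929) had a log2 fold change of -2.95 (adjusted p = 0.002294) and galacturonosyltransferase 9 (LOC100253237) one of -1.17 (adjusted p = 0.001699). LOC104880620, at 0 in harvest berries of both other cultivars, kept 180 counts in the 3 Xiangfei EL38 samples, so that Zaomeiguixiang was at least 23.61-fold and Italia at least 22.08-fold lower there (23.06-fold and 21.56-fold without the seed-rich Xiangfei EL38 replicate 3). The pectinesterase 2-like LOC100262077 and the pectate lyase-like LOC100267345 were also called between cultivars, at levels no higher than 2.12 and 0.54 FPKM in any sample. The call of LOC100262077 for Italia against Xiangfei was lost without Xiangfei EL35 replicate 3 (-3.99, adjusted p = 0.06381), and that of LOC100267345 for Zaomeiguixiang against Italia without Zaomeiguixiang EL35 replicate 2 (adjusted p = 0.9999).

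Whether the stage changes differed between the cultivars was tested directly. Of the 91 members, 3 passed, beside 0.662% of all genes: the methylesterase LOC100245658, the pectate lyase LOC100251082 and the polygalacturonase LOC100256410. DESeq2 called 12. Leaving out 1 library gave 0 to 7 members, with LOC100251082 not called in 5 of 27 fits, LOC100245658 in 18 and LOC100256410 in 24, and without the 3 seed-rich libraries 4 were called, 1 of them shared with these 3.

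LOC100245658, described as pectinesterase/inhibitor 54, had its highest values at harvest in Zaomeiguixiang and in Italia. Its FPKM in Zaomeiguixiang was 1.45, 4.68 and 5.19 at EL35, 5.93, 5.16 and 8.41 at EL36 and 41.05, 16.99 and 9.77 at EL38. In Italia it was 0.11, 0.68 and 0.36, then 0.38, 2.08 and 2.22, then 9.52, 4.47 and 22.81, and in Xiangfei 2.81, 1.86 and 1.76, then 1.55, 1.88 and 1.73, then 0.48, 0 and 0.04. At EL38 the Xiangfei samples all lay below their EL35 samples, and those of the other cultivars all lay above. The change was called in Italia (4.92, SE 1.03, adjusted p = 0.009825), not in Zaomeiguixiang (2.31, adjusted p = 0.2428) or Xiangfei (-3.25, adjusted p = 0.1108), and the difference between cultivars had an adjusted p of 0.04133 (0.08213 without the 3 seed-rich libraries). At harvest the log2 fold change against Xiangfei was 6.29 (adjusted p = 0.001897) in Zaomeiguixiang and 5.67 (adjusted p = 0.003044) in Italia.

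LOC100251082, described like PL1 as a pectate lyase 8, had its high values in different stages of different cultivars. In Zaomeiguixiang they were at EL35, at 2.29, 11.87 and 7.43 FPKM, with 1.79, 0.39 and 0.21 at EL38. In Xiangfei they were at EL36, at 21.6 and 8.95 in 2 samples with 0.07 in the third, and EL35 and EL38 samples stayed at or below 0.94. Italia had 0 in all EL36 samples, at least 146.6-fold lower than Xiangfei at that stage, and at most 1.01 at any stage (adjusted p of the difference in stage change 0.02932). The third gene, LOC100256410, is described as QRT3, a polygalacturonase that in Arabidopsis helps pollen grains separate. It had 23.67, 9.55 and 14.37 FPKM at EL38 against 3.7, 38.91 and 20.17 at EL35 in Zaomeiguixiang, but 13.95, 0.43 and 1.27 against 0, 0.03 and 0 in Italia (adjusted p of the difference 0.04649, and 0.06631 without the 3 seed-rich libraries). Its replicates differed widely, as in Xiangfei at EL36 with 30.33, 0 and 0.9 FPKM, and its average stage change (3.69, adjusted p = 0.04382) was lost in 16 of 27 fits that left out 1 library. That call was also lost without the 3 seed-rich libraries (3.60, adjusted p = 0.08853).

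**Figure D5:**
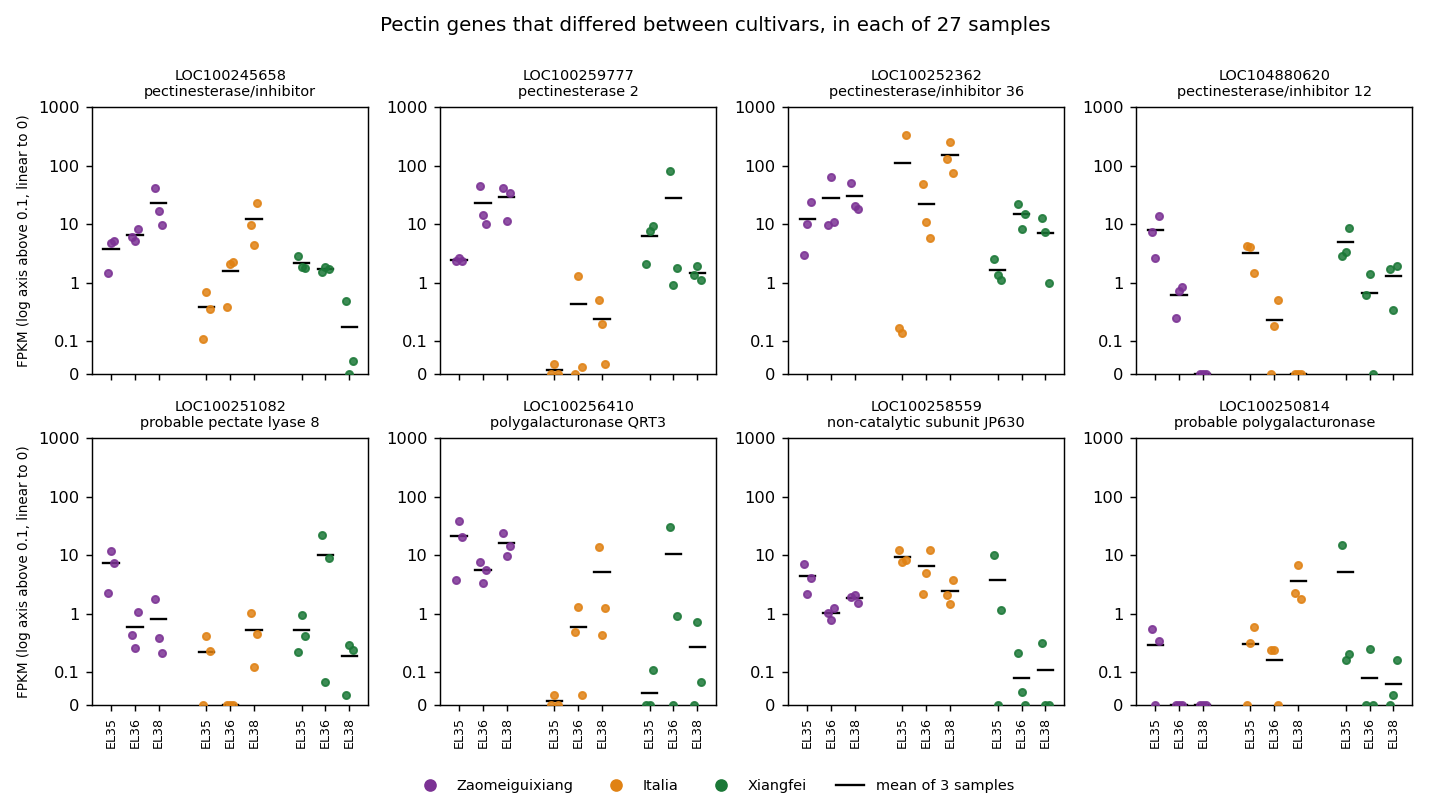
FPKM (vertical axis, logarithmic above 0.1 and linear to 0) of 8 pectin genes that differed between cultivars in each sample, by stage within each cultivar; points are samples and bars are means of 3. LOC100245658 reaches 9.77 to 41.05 FPKM at EL38 in Zaomeiguixiang and 4.47 to 22.81 in Italia, against 0 to 0.48 in Xiangfei, and the high Italia EL35 point of LOC100252362, at 338.01, is the seed-rich library.

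Other wall genes of known relation to pectin were counted from lists of names. Of 17 tested pectin methyltransferases, which add the methyl groups in the Golgi, 3 were called lower and none higher at EL38 against EL35. Of 15 genes that supply sugar precursors, 2 were lower and 1 higher, and of 3 arabinofuranosidases, which trim arabinose side chains, 1 was lower. Among the loosening proteins that do not act on pectin, 7 of 18 expansins were lower and 2 higher, and 3 of 23 xyloglucan endotransglucosylases were lower and 2 higher. In Italia against Xiangfei, 5 expansins, 8 xyloglucan endotransglucosylases and 4 precursor genes were lower and none of these lists had a gene called higher. These lists cover 5 kinds of gene and are read beside the shares of all genes given above.

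Members lying next to each other in the reference gene order formed 14 runs, the longest of 4 polygalacturonases. Neighbours with similar sequence can share reads, so their separate counts are uncertain. The methylesterases LOC104880619 and LOC104880620 form one such pair, and LOC104880619 was called lower too (adjusted p not kept without the 3 seed-rich libraries, at 0.0577). The polygalacturonases LOC100255958 and LOC100250814 form another, and in Italia at EL38 the first had 0.74, 2.22 and 1.5 FPKM beside the values of the second given above.

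The 48 members that were not tested had too few counts to pass the filter on low counts. They were 20 polygalacturonases, 16 pectin methylesterases, 4 beta-galactosidases, 3 pectate lyases, 3 pectinesterase inhibitors and 2 galacturonosyltransferases. The highest mean among them was 1.69 FPKM, of the polygalacturonase LOC100255950. Xiangfei EL35 replicate 1 had the highest value of 12 of the 48 and Xiangfei EL36 replicate 1 of 9, against at most 3 in any other library. Xiangfei EL35 replicate 1 had 45.59 FPKM of LOC100255950, 14.25 and 11.23 of the methylesterases LOC100259136 and LOC100259731 and 7.61 of the beta-galactosidase LOC100242240. No untested member passed 4.41 FPKM in another library. In any one sample 65 to 100 members were listed at all, and 49 were listed in all 27.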

How the data were processed

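RNA from 27 berry samples was sequenced by the authors, who filtered the reads with SOAPnuke, aligned them with HISAT to the V2 grape genome, and aligned them to transcripts with Bowtie2 for RSEM. Each deposited file lists, per gene, the expected count and the FPKM that the authors obtained from RSEM, beside a transcript length and database descriptions. A gene missing from a file was taken as 0, because no listed gene was at 0. Per the labels, samples fell into 9 groups of cultivar and stage.

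After rounding the expected counts, genes were tested by the quasi-likelihood method of edgeR 4.0.16 in R 4.3.3 (filterByExpr, TMM, glmQLFit and glmQLFTest) in 1 fit with a mean for each group, which left 18 residual degrees of freedom. Contrasts averaged over cultivars or stages, contrasts within a cultivar and an F test of cultivar by stage were taken. Benjamini-Hochberg adjustment covered the 21152 genes tested, and a gene was called at an adjusted p of at most 0.05. Standard errors are the log2 fold change divided by the root of F. FPKM was used for levels only and was not tested. The script was tested on simulated data.

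The members, the role lists, the other wall genes and the alternatives were chosen with earlier results of these data known. Named genes were the 2 most abundant tested members of each role, the 5 largest called changes in each direction at EL38 over EL35, the 2 largest called differences in each direction for each pair of cultivars, and up to 4 called in the interaction. A further 21 genes were named after their values were seen. Alternatives were DESeq2 1.42.0, edgeR with the size factors of DESeq2, no low-count filter, only the groups compared, a replicate block, the study's thresholds (adjusted p up to 0.001, absolute log2 fold change from 1), each library left out, and the fit without the 2 or, chosen after seeing the data, the 3 seed-rich libraries. Gene order came from the RefSeq table of assembly ASM3070453v1, another build than the authors' one, in which 137 of 139 members were found. A count of 0 allows up to 3 counts per library, and such limits cover counting error only. Python 3.11.15, pandas 2.3.3, numpy 2.4.6 and matplotlib 3.10.9 were used for tables and figures.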

Additional observations from a re-analysis of the deposited data

Results flagged for a closer look

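The stage changes of 3 genes differed between the cultivars in the test of the difference itself. The adjusted p was 0.02932 for the pectate lyase LOC100251082, 0.04133 for the methylesterase LOC100245658 and 0.04649 for the polygalacturonase LOC100256410. Leaving out 1 library at a time, LOC100251082 was not called in 5 of 27 fits, LOC100245658 in 18 and LOC100256410 in 24.

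In 2 genes the EL38 samples all lay above the EL35 samples in one cultivar and all below them in another. For LOC100245658 the log2 fold change, EL38 over EL35, was 2.31 in Zaomeiguixiang and 4.92 in Italia, with all EL38 samples higher, and -3.25 in Xiangfei, with all lower. For the pectinesterase 2 gene LOC100259777 it was 3.35 in Zaomeiguixiang, with all EL38 samples higher, and -1.98 in Xiangfei, with all lower. The joint test over the 3 cultivars was not passed for LOC100259777 (adjusted p = 0.3396), and the difference between those 2 cultivars alone was not tested.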

How the results depend on the processing

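Counts are of pectin genes called, and the shares of all genes called under these alternatives are not given here. DESeq2 called 3 at EL38 over EL36, 17 within Zaomeiguixiang, 18 within Italia and 22 within Xiangfei at EL38 over EL35, and 12 in the interaction. With the study's thresholds the counts were 4 at EL36 over EL35, 12 at EL38 over EL35, 0 within each cultivar, 6 for Italia over Xiangfei, 6 for Zaomeiguixiang over Italia, 0 for Zaomeiguixiang over Xiangfei and 0 in the interaction, a stricter rule by construction. With only the groups compared, 19 were called within Zaomeiguixiang, 1 within Italia and 4 within Xiangfei, and LOC100258818 had a log2 fold change of -0.0155. The interaction had 5 with DESeq2's size factors and 8 with no filter on low counts. Without the 2 seed-rich libraries known beforehand, 13 were called within Zaomeiguixiang and 31 for Zaomeiguixiang over Xiangfei. The cause of these shifts was not tested.

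Samples that shared a replicate number did not deviate together on average (mean r = -0.006 over 108 pairs, from -0.406 to 0.54, against 0.003 over 216 other pairs). The labels do not say what a number marks, and this mean cannot show that it marks nothing. A replicate block left 6 called within Xiangfei and 0 in the interaction (adjusted p = 0.06876 for LOC100251082, 0.08653 for LOC100245658 and 0.1453 for LOC100256410), moved no other count by over 1.5 times, and ended the calls of LOC100256410 at EL38 over EL35 (adjusted p = 0.07707) and LOC100262181 at EL36 over EL35 (adjusted p = 0.05473).

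Leaving out each library in turn gave 21 to 30 at EL36 over EL35, 25 to 31 at EL38 over EL35, 0 to 0 at EL38 over EL36, 3 to 11 within Zaomeiguixiang, 2 to 14 within Italia, 3 to 12 within Xiangfei, 17 to 27 for Italia over Xiangfei, 10 to 30 for Zaomeiguixiang over Xiangfei, 22 to 26 for Zaomeiguixiang over Italia and 0 to 7 in the interaction. Counts moved by over 1.5 times without Zaomeiguixiang EL35 replicate 1 (4 within Zaomeiguixiang), EL38 replicate 2 (3) or replicate 3 (4), or Italia EL35 replicate 3 (11). They did so within Italia without its EL35 replicate 1 (4) or 2 (6) or its EL38 replicate 1 (5), 2 (2) or 3 (5). Within Xiangfei they did so without any of its EL35 replicates (6, 3 and 6), its EL38 replicates 1 (5) or 2 (3), and 4 libraries of the other cultivars (6 each). For Zaomeiguixiang over Xiangfei they did so without Xiangfei EL36 replicate 1 (30), EL35 replicate 3, EL36 replicate 3 or Zaomeiguixiang EL35 replicate 3 (12 each) or Xiangfei EL38 replicate 2 (10), and in the interaction in 17 of 27 fits. Uncalled changes changed sign in LOC100258818 (-0.12 to 0.13), LOC100247189 (-0.29 to 0.0091), LOC100260538 (-2.07 to 1.39) and LOC100262077 (-0.34 to 2.42). Of 78 results for named genes, 74 kept their call and direction with DESeq2 and 37 with the study's thresholds. With 3 samples a group the spread is poorly known, and members under about 1 FPKM are limited by depth.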
